A study of Mus musculus with 3 samples.

Results

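Endothelial cells were found among leukocytes that had been sorted from mouse hearts on CD45, a surface protein of blood-derived cells that vessel lining cells lack. They were picked by RNA, from barcodes that had 200 or more genes and no more than 10% mitochondrial UMIs (unique molecular identifiers, 1 per captured RNA molecule). A barcode counted as endothelial when Cdh5, Egfl7, Cldn5 and Gpihbp1 together gave at least 3 UMIs and Col1a1, Col1a2, Col3a1 and Dcn together gave fewer than 10. The rule took 601 of 32215 kept barcodes, out of 33159 in all: 236 in Sham, 106 in MI, 259 in MI-E. Barcodes that also held at least 5 UMIs of the macrophage genes C1qa, C1qb and C1qc are given apart as C1q-positive, likely doublets of a macrophage and an endothelial cell. They numbered 182, which left 419 C1q-low endothelial cells: 192 in Sham, 42 in MI, 185 in MI-E.

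The hearts came from C57BL/6J mice of 8 to 9 weeks, and each group is 1 library of 10x Genomics 3' v3.1 RNA sequencing. Sham and MI are taken by name as hearts after mock surgery and after myocardial infarction, and MI-E is left unexplained by the labels. The surgery text in the labels, a ligation of the left anterior descending coronary artery, is the same for all 3 groups, Sham included, and the labels give no interval between surgery and harvest and no number of hearts per library. Each group having 1 library, no difference could be checked in a replicate: what belongs to a group and what belongs to its library cannot be told apart, and no test or p-value was computed. Levels are CPM, the UMIs of a gene as a share of all UMIs summed over a class of cells, times 1000000. Values given in a row of 3 are for Sham, MI and MI-E in that order, and all intervals are exact, at 95%, and cover counting error only.

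Endothelial cells line all blood vessels, seal them through junction proteins such as VE-cadherin (Cdh5) and claudin-5 (Cldn5), and lay down the basement membrane they sit on. In the heart most of them form capillaries, which take up fatty acids for the muscle: GPIHBP1 carries lipoprotein lipase to the capillary wall, CD36 takes up the fatty acids it frees, and FABP4 binds them inside the cell. They also answer interferons and, in veins above all, show adhesion molecules such as P-selectin and VCAM-1 to passing leukocytes.

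The label held against genes that the rule did not use. A list of 25 other pan-endothelial genes summed to 10801 CPM in the C1q-low cells of Sham, 8528 in MI and 10381 in MI-E. All other kept barcodes held 170, 62.4 and 118 CPM of the same list. At least 3 UMIs of that list were present in 98.3%, 98.1% and 98.8% of endothelial-marker barcodes in Sham, MI and MI-E. Among barcodes with exactly 2 marker UMIs, just outside the rule, these shares were 46.3% of 54, 42.1% of 19 and 27.8% of 36, and among those with exactly 3, just inside it, 93.3% of 15, 90.9% of 11 and 85.7% of 14. Barcodes near the limit were few beside the 601. These values describe the choice of cells and are not a test of it.

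The genes that stood highest above all other kept barcodes in every library were ordered by the lowest of the 3 ratios of CPM + 1, a scale that favours abundant genes over scarce ones. Ly6c1, a surface protein of endothelium whose reads can be shared with close paralogs, led this order with a lowest ratio of 166, at 1764, 1395 and 1972 CPM. Next came Cavin2 (142), a coat protein of the membrane pits called caveolae, Ptprb (136), a phosphatase that acts on VE-cadherin and TIE2, and Rbp7 (129), a retinol-binding protein. The 25 genes that led this order also held the caveolin Cav1, the transcription factors Sox17 and Tcf15, the water channel Aqp1, the VEGF receptor Flt1, the orphan receptor Tie1 and the adrenomedullin co-receptor Ramp2, the last with a lowest ratio of 83.1. Fabp4 alone made up 22325 CPM in Sham, against 16343 in MI and 12573 in MI-E and was present in 99.5%, 95.2% and 97.8% of C1q-low cells, against 12.8%, 29.8% and 19.2% of all other kept barcodes.

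Nearly every cell held capillary genes, and fewer held those of other vessel beds. At least 2 UMIs of a list of 16 capillary and lipid uptake genes were found in 99.5% of C1q-low cells in Sham, against 95.2% in MI and 99.5% in MI-E, and in 98.9%, 94.7% and 95.8% after each cell was thinned to 1500 UMIs, which left out 27, 3 and 8 shallower cells. All other kept barcodes gave 13.9%, 55.8% and 44.5% after thinning; the list holds Cd36, Fabp5 and Lpl, which macrophages also express. The arterial list gave 63.5%, 59.5% and 76.8% before thinning and 38.4%, 25.7% and 35.4% after it, beside 0.165%, 0.302% and 0.288% in all other kept barcodes. The venous list gave 24.0%, 28.6% and 56.2% before thinning and 8.26%, 14.0% and 17.7% after it, beside 0.802%, 1.06% and 5.28% in all other kept barcodes at the same depth. The lymphatic list gave 1.41%, 1.10% and 1.76% after thinning, no more than the 4.41%, 3.50% and 3.42% of all other kept barcodes. In those barcodes 2 of the 7 list genes had a mean of at least 50 CPM over Sham and MI, against 0 in C1q-low cells. That background is thus no floor for lymphatic identity. A few Sham cells did stand out: 6 C1q-low cells of Sham that held Plvap, a split made after values had been seen, carried 48 UMIs of the lymphatic list, in 3 of the 6 cells, against 25 UMIs in the other 186. Prox1, the transcription factor that sets lymphatic fate, was at 8.80 CPM in 6 Sham cells, at 0 in MI and at 5.37 CPM in 4 MI-E cells.

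The sort for CD45 sets how many endothelial cells a library holds, so their share says nothing of their share in the heart. C1q-low endothelial cells were 1.73% of kept barcodes in Sham (1.49 to 1.99), 0.476% in MI (0.343 to 0.642) and 1.51% in MI-E (1.30 to 1.74). The share in MI was 3.64-fold lower than in Sham (2.59 to 5.21) and 3.17-fold lower than in MI-E (2.26 to 4.54). With the C1q-positive barcodes included, MI was 1.77-fold lower than Sham (1.40 to 2.25) and 1.76-fold lower than MI-E (1.40 to 2.22). The size of the difference thus depends on the C1q limit. MI-E and Sham differed by less than counting error, at a ratio of 0.871 (0.708 to 1.07), but in the leukocyte-poor cells defined below the ratio was 0.737 (0.576 to 0.941). After thinning to 1500 UMIs the shares were 1.57%, 0.339% and 1.23%, with MI again lowest. The cells' median depth, 4236 UMIs in Sham, against 4809.5 in MI and 6539 in MI-E, differed less than that of all kept barcodes, 2760, 9789 and 7494.

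**Figure D1:**
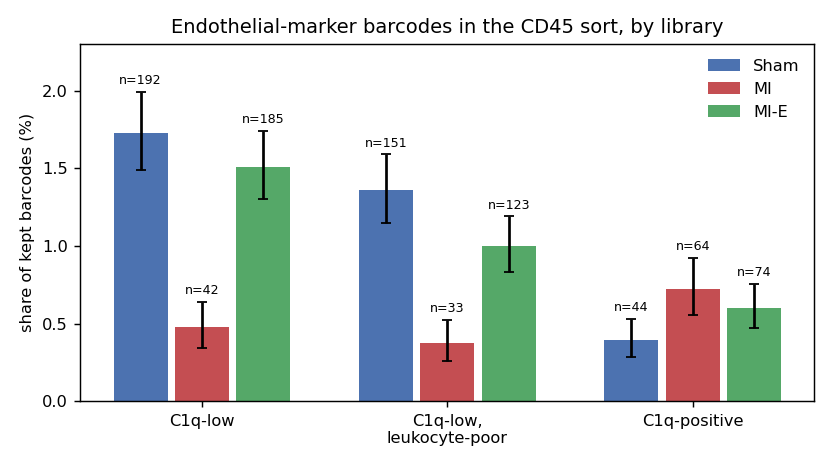
Share of kept barcodes (%, vertical axis) that were C1q-low, leukocyte-poor or C1q-positive endothelial-marker barcodes (horizontal axis), with 1 column per library, its number of barcodes above it and exact 95% intervals as error bars. C1q-low cells were 1.73%, 0.476% and 1.51%, while the C1q-positive barcodes were highest in MI, at 0.725%.

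How far these cells passed as leukocytes was read from their RNA. Ptprc, the gene of CD45, had a UMI in 14.6%, 16.7% and 27.0% of C1q-low cells, against 53.1%, 82.5% and 83.0% of all other kept barcodes, whose median depth was 2739, 9766 and 7472 UMIs. At 1500 UMIs per cell these shares were 6.46%, 6.18% and 9.41% against 35.1%, 32.0% and 44.4%. When the C1q-low cells were limited to those with fewer than 5 UMIs of 9 pan-leukocyte genes, called leukocyte-poor, 151, 33 and 123 cells remained. In these Ptprc was seen in 1.32%, 3.03% and 5.69% of cells, a share that the limit itself keeps low because it counts leukocyte genes. By number, most C1q-low cells thus held little leukocyte RNA. The other C1q-low cells are called leukocyte-rich. They held 267039 of 909119 C1q-low UMIs in Sham, 97625 of 280241 in MI and 882540 of 1676590 in MI-E. Levels summed over C1q-low cells include those UMIs.

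Leukocyte RNA in the other C1q-low cells differed between libraries. The pan-leukocyte genes summed to 696 CPM over C1q-low cells in Sham, against 2922 in MI and 2527 in MI-E, and to 117, 148 and 257 CPM over leukocyte-poor cells. Of the 41 leukocyte-rich cells in Sham, 24 held at least 5 UMIs of a B cell list, which includes Ebf1, a gene that endothelial cells also express, and 12 held as many of a T and NK cell list. All 9 in MI and 47 of 62 in MI-E held at least 5 UMIs of a macrophage and monocyte list, and 19 of the 62 as many of a neutrophil list. Of all other kept barcodes in Sham, 30.5% met the same limit for the B cell list and 10.7% for the T and NK cell list. The macrophage and monocyte list reached it in 93.3% of them in MI and 78.6% in MI-E, and the neutrophil list in 38.5% in MI-E. The median depth of the leukocyte-rich cells was 5881, 9850 and 13212 UMIs, above that of the leukocyte-poor cells at 3513, 3709 and 5164. Values of the leukocyte-poor cells are given below where the main results turn on them.

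Before thinning, the C1q-positive barcodes went the other way across libraries. They were 0.396% of kept barcodes in Sham (0.288 to 0.532), 0.725% in MI (0.559 to 0.925) and 0.603% in MI-E (0.474 to 0.756), a ratio of 1.83 for MI over Sham (1.23 to 2.75). After thinning to 1500 UMIs the ratio turned to 0.541, with shares of 0.224%, 0.121% and 0.248%. They made up 18.6% of endothelial-marker barcodes in Sham, against 60.4% in MI and 28.6% in MI-E, beside the 47.7%, 66.6% and 34.7% of all kept barcodes that held at least 5 C1q UMIs. They were deep, with medians of 7911, 21676 and 20252.5 UMIs against 4277, 11373 and 11453 in other C1q-positive barcodes. Their RNA held both programmes: the pan-endothelial list stood at 5506, 2272 and 4617 CPM, below the C1q-low cells, and the macrophage and monocyte list at 8555, 7676 and 7778 CPM, beside 12662, 11358 and 10834 CPM of all other kept barcodes. Fibroblast RNA appeared too: 3 of 44, 22 of 64 and 29 of 74 held at least 5 UMIs of a fibroblast list. Of all other kept barcodes, which were shallower, 0.635%, 11.8% and 10.9% held as many, so Sham was the lowest library there too. How the C1q-positive barcodes came to hold both programmes was not tested.

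**Figure D2:**
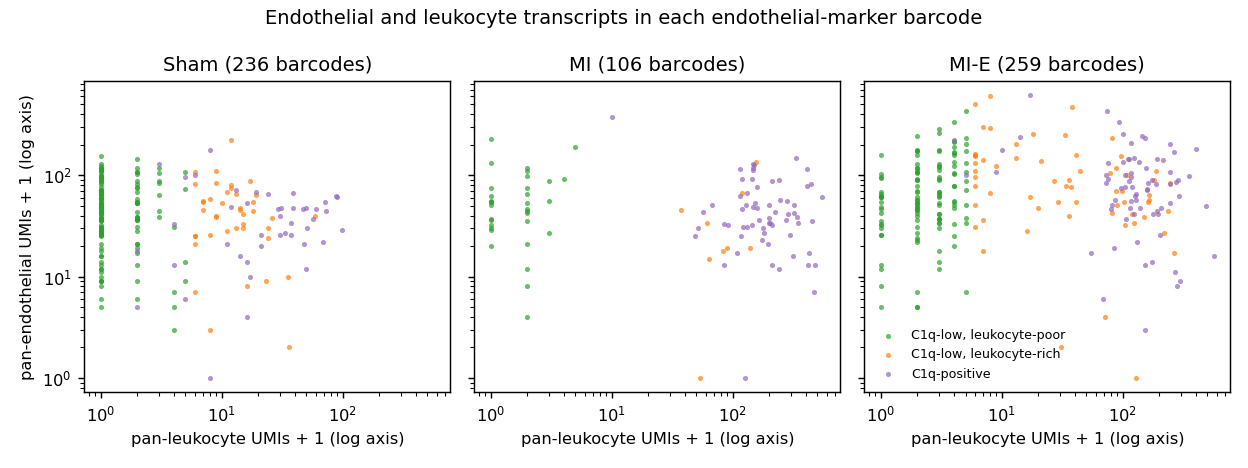
UMIs of the pan-endothelial list (vertical axis) against UMIs of the pan-leukocyte list (horizontal axis), both plus 1 on log axes, for each endothelial-marker barcode, with 1 panel per library and colours for leukocyte-poor, leukocyte-rich and C1q-positive barcodes. Leukocyte-poor cells dominate Sham (151 of 236), while 64 of 106 barcodes in MI are C1q-positive and lie to the right.

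A few other transcripts moved with the groups. Cardiomyocyte genes, which should be absent from both leukocytes and endothelium, summed to 968 CPM in C1q-low cells of Sham, 307 in MI and 784 in MI-E, and to 93.0, 20.4 and 37.5 CPM in all other kept barcodes. At least 5 such UMIs were held by 47 of 151, 6 of 33 and 59 of 123 leukocyte-poor cells. Red cell genes summed to 21523, 0 and 3987 CPM, with at least 5 such UMIs in 6 cells of Sham and 6 of MI-E. Fibroblast genes stayed low, at 72.6, 71.4 and 116 CPM. The part of these transcripts in the differences below was not tested. Between libraries, 35 barcode sequences were shared by Sham and MI, 26 by MI and MI-E and 45 by Sham and MI-E, and 1 endothelial-marker barcode was among them.

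The comparison of MI with Sham asks what differed in the endothelium that passed the sort after infarction. In the C1q-low cells of MI, genes of lipid uptake and capillary identity were lower, genes of the basement membrane and of venous vessels were higher, and the heat shock and immediate early genes were far lower. Of 2872 genes with a mean of at least 50 CPM over both libraries, 679 (23.6%) were at least 1.5-fold higher in MI and 471 (16.4%) at least 1.5-fold lower, with a median log2 ratio of 0.11. The split rests on the scaling: with TMM factors, which centre most genes, 519 were higher and 622 lower, and the median was -0.02. All MI values come from 42 cells, so each gene's number of cells is given where it is small.

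All 16 capillary and lipid uptake genes passed the limit of 50 CPM. In MI 9 were at least 1.5-fold lower and 2 higher, beside 16.4% and 23.6% of all genes. In leukocyte-poor cells 7 were lower and 2 higher, beside 15.5% and 24.5% of all genes. The median log2 ratio of the list was -0.66, beside -0.43 in leukocyte-poor cells. Fabp4 was 1.37-fold lower in MI relative to Sham (1.32 to 1.41). Cd36, at 1530, 924 and 919 CPM, was 1.66-fold lower (1.45 to 1.90). Aqp1 stood at 881 CPM in Sham, against 321 in MI and 490 in MI-E and was 2.74-fold lower in MI (2.20 to 3.45). Sham was thus the highest library for each of these 3 genes. Aqp7, a channel for water and glycerol, was at 157 CPM in 85 Sham cells, 32.1 in 6 MI cells and 27.4 in 33 MI-E cells, which is 4.90-fold lower in MI (2.51 to 10.9). Car4, the carbonic anhydrase on the capillary surface, was at 167, 42.8 and 72.2 CPM, 3.90-fold lower in MI (2.17 to 7.72). Against this trend ran Angptl4, a secreted inhibitor of lipoprotein lipase, at 27.5, 89.2 and 69.8 CPM, and Fabp5, a second fatty acid binding protein, at 980, 1798 and 973 CPM. Fabp5 was at 2818 CPM in all other kept barcodes of MI, but the leukocyte-poor cells, at 1148, 1878 and 1115 CPM, had the same order.

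Receptors of vessel growth and maintenance were lower in MI as well. Kdr, the main VEGF receptor, was at 716, 325 and 522 CPM, 2.21-fold lower in MI relative to Sham (1.77 to 2.78) and 1.61-fold above MI in MI-E (1.30 to 2.02). Tie1 was at 263, 136 and 178 CPM, 1.94-fold lower in MI (1.37 to 2.81). Sox18, a transcription factor of endothelial differentiation, was at 302, 107 and 95.4 CPM, 2.83-fold lower in MI (1.93 to 4.27). Not all pan-endothelial genes were lower: Pecam1, an adhesion molecule at endothelial junctions, was at 506, 575 and 505 CPM, with ratios whose intervals include 1. Of the 25 pan-endothelial genes, 24 passed the limit, 9 were at least 1.5-fold lower in MI, beside 16.4% of all genes, and 0 higher. In leukocyte-poor cells 5 of 25 were lower, beside 15.5% of all genes, and the median log2 ratio was -0.21 instead of -0.42. Of 14 arterial genes 6 passed, of which 5 were lower, or 3 of 6 in leukocyte-poor cells, among them Dll4, the Notch ligand of arteries, at 172, 99.9 and 144 CPM. Flow-responsive genes pointed the same way, with 4 lower of the 4 that passed among 7. Klf2, the transcription factor that shear stress induces, was at 1075 CPM in Sham, against 450 in MI and 621 in MI-E, and Thbd, the anticoagulant receptor thrombomodulin, at 146, 60.7 and 119 CPM. Klf2 was also at 748, 68.4 and 112 CPM in all other kept barcodes, so the order of libraries was the same there.

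**Figure D3:**
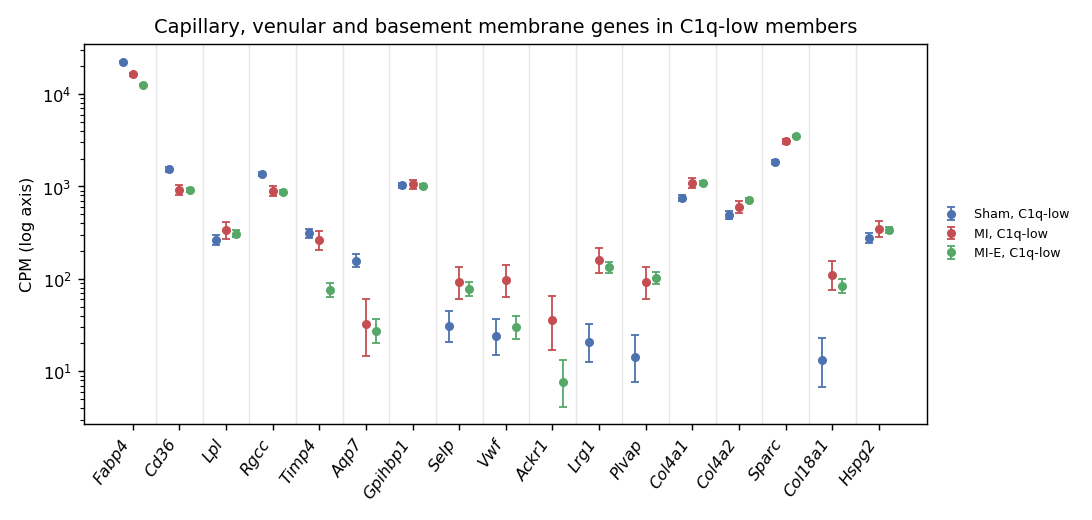
Levels of 17 capillary, venous and basement membrane genes (CPM, log axis) in the C1q-low endothelial cells of each library, with exact Poisson 95% intervals as bars. Fabp4 and Cd36 are highest in Sham (22325 and 1530 CPM) and Sparc lowest there (1826 CPM), Gpihbp1 was part of the rule, and Ackr1 at 0 in Sham cannot be drawn on the log axis.

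Basement membrane and matrix genes were higher in MI. Of 14, 12 passed the limit, and 7 were at least 1.5-fold higher and 0 lower, beside 23.6% and 16.4% of all genes. The median log2 ratio was 0.66 (0.96 in leukocyte-poor cells). Sparc, a collagen-binding matrix protein, was at 1826, 3090 and 3540 CPM, 1.69-fold higher in MI (1.56 to 1.84). Igfbp7, a secreted protein of the vessel wall, was at 2167, 4100 and 3745 CPM. Col4a1, a chain of the collagen of basement membranes, was at 747, 1092 and 1086 CPM, 1.46-fold higher in MI (1.27 to 1.68). MI and MI-E were thus both above Sham and close to each other. Col18a1, the collagen that holds endostatin, was at 13.2 CPM in 9 Sham cells, 111 in 13 MI cells and 83.5 in 43 MI-E cells, 8.38-fold higher in MI relative to Sham (4.18 to 17.9). Lamb1, a laminin chain, was at 47.3, 114 and 114 CPM, and Col15a1, a collagen beneath the endothelium, at 60.5, 221 and 127 CPM. In all other kept barcodes Sparc was at 29.8, 73.4 and 207 CPM and Col18a1 at 0.254, 0.600 and 1.97 CPM, far below the endothelial cells.

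Venous genes were higher in MI but came from few cells. Of 9 venous genes 6 passed the limit and 4 were at least 1.5-fold higher, with 0 lower, beside 23.6% and 16.4% of all genes. Lrg1, a secreted glycoprotein of inflamed venules, was at 20.9 CPM in 4 Sham cells, 161 in 6 MI cells and 134 in 53 MI-E cells. Vwf, the clotting factor stored in endothelium, was at 24.2, 96.3 and 29.8 CPM in 9, 7 and 23 cells. Selp, P-selectin, was at 30.8, 92.8 and 78.7 CPM in 4, 3 and 14 cells. Ackr1, a chemokine receptor of venules, was at 0 in Sham, at 35.7 CPM in MI from 1 cell alone and at 7.75 CPM in MI-E from 2 cells. The MI values of these genes thus rest on 7 cells or fewer each, and on fewer still by UMIs. In MI 1 cell held 22 UMIs of Selp and 2 others held 4, while 2 cells held 37 UMIs of Lrg1 and 4 others held 8. By the split on Plvap, made after values had been seen, 5 Plvap-positive MI cells held 146 UMIs of the venous list, against 74 in the other 37. Genes of sprouting were mixed: of 12, 6 passed the limit, with Pgf, Mcam and Plvap at least 1.5-fold higher and Dll4 and Adm lower. Of all genes 23.6% were higher and 16.4% lower, and the median of the sprouting list was 0.36. In leukocyte-poor cells 4 of 8 sprouting genes were higher and 2 lower, beside 24.5% and 15.5% of all genes, with a median of 1.16. Apln, the ligand of the apelin receptor, was at 16.5, 74.9 and 72.8 CPM in 9, 9 and 31 cells, below the limit in its mean over Sham and MI, and Mcam, an adhesion molecule of growing vessels, at 41.8, 139 and 124 CPM in 29, 19 and 74 cells, 3.33-fold higher in MI relative to Sham.

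The largest single differences between MI and Sham were taken by rule among genes with at least 100 CPM in the higher library, in at least 10% of its cells. Among those higher in MI, AA467197, a gene of unclear function, was at 25.3, 332 and 518 CPM, but also at 9.72, 174 and 245 CPM in all other kept barcodes. Pdgfa, the growth factor PDGF-A, was at 41.8, 175 and 157 CPM in 16, 12 and 70 cells, 4.18-fold higher in MI (2.68 to 6.57), while all other kept barcodes had 52.2, 24.7 and 26.6 CPM. Upp1, a uridine phosphorylase, was at 44.0, 175 and 153 CPM, 3.97-fold higher (2.56 to 6.19). Pdgfa and Upp1 were alike in that MI and MI-E were close and both above Sham. Ppp1r14b, Tubb6, Cenpa, Ckap4, Col18a1 and Lrg1 were between 3.87-fold and 8.38-fold higher. Lower in MI beside the stress genes Hspa1b, Hspa1a, Dnajb1, Hspb1 and Ier5l were Cdkn1c, a cell cycle inhibitor, at 374, 67.8 and 112 CPM, Gstm1, a glutathione transferase, at 181, 32.1 and 106 CPM, Slc28a2, a nucleoside transporter, 5.06-fold lower in MI (2.38 to 12.9), Icam1 and Aqp7.

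Cell cycle genes were seen in a few cells of MI and MI-E. Mki67, a marker of cycling cells, had no UMI in 192 Sham cells, which allows up to 1.56% of cells with a UMI, and was seen in 5 of 42 cells in MI and 9 of 185 in MI-E. Its level was 39.3 CPM in MI and 9.54 in MI-E, 4.11-fold lower in MI-E (1.73 to 9.44). Ube2c and Birc5, both needed for division, were at 96.3 and 99.9 CPM in MI, in 5 cells each. Mki67 was at 15.3, 62.1 and 22.7 CPM in all other kept barcodes, and at 0, 49.3 and 3.78 CPM in leukocyte-poor cells. Glycolysis genes were also higher in MI, for example Pkm, pyruvate kinase, at 190, 660 and 613 CPM. Of 20 such genes 13 passed the limit and 8 were higher, beside 23.6% of all genes. In all other kept barcodes 10 of these genes were higher, beside 30.1% of all genes measured there, and Pkm was at 231, 828 and 1010 CPM, so Sham was the lowest library in both classes.

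Stress genes were highest in Sham, in the endothelial cells and in the leukocytes alike. Of 20 heat shock and immediate early genes, known to be induced when tissue is digested into cells, all 20 passed the limit. In MI 19 were at least 1.5-fold lower relative to Sham, beside 16.4% of all genes, with a median log2 ratio of -1.40. In all other kept barcodes 17 were lower, beside 16.0% of all genes there, with a median of -1.57. Hspa1b, an inducible heat shock protein whose reads can be shared with Hspa1a, was at 3000 CPM in Sham, against 328 in MI and 505 in MI-E, 9.14-fold lower in MI relative to Sham (7.42 to 11.4), and at 1554, 38.2 and 46.2 CPM in all other kept barcodes. Fos, an immediate early transcription factor, was at 2112, 767 and 1052 CPM in the endothelial cells and 931, 438 and 361 in the others. Sham was the highest library for both genes in both classes. Hspb1, a small heat shock protein, was largely endothelial, at 4006, 856 and 1421 CPM beside 204, 22.0 and 20.5. The summed list was at 45215, 16247 and 24314 CPM in C1q-low cells and at 22852, 8678 and 9698 CPM in all other kept barcodes. Icam1, an adhesion molecule that also responds to such stress and to cytokines, had the same order, at 615, 114 and 480 CPM. How far handling of the cells enters the other differences was not tested.

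**Figure D4:**
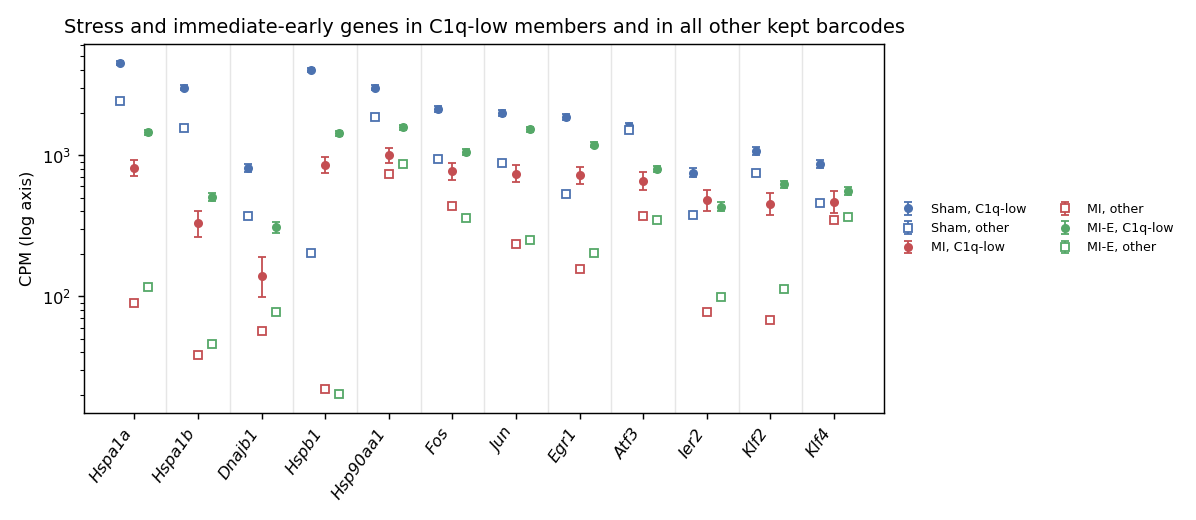
Levels of heat shock and immediate early genes (CPM, log axis) in each library, with C1q-low endothelial cells as filled circles, all other kept barcodes as open squares and exact Poisson 95% intervals as bars. Both classes were highest in Sham, with Hspa1b at 3000 CPM in endothelial cells and 1554 CPM in the others.

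The comparison of MI-E with MI asks how the endothelial cells of MI-E differed from those of MI. Interferon-inducible genes, above all the guanylate-binding proteins (GBPs) and immunity-related GTPases, were several-fold higher in the endothelial cells of MI-E, while capillary and basement membrane genes had medians near 0. Of 2994 genes that passed the limit of 50 CPM, 343 (11.5%) were at least 1.5-fold higher in MI-E and 270 (9.02%) at least 1.5-fold lower, with a median log2 ratio of -0.03. This balance turned in leukocyte-poor cells, with 388 higher and 448 lower. The capillary list had a median log2 ratio of -0.04 (0.11 in leukocyte-poor cells and 0.02 with median-of-ratios scaling), with 4 of 15 genes higher and 2 lower, and the basement membrane list one of -0.05, with 0 of 13 higher and 1 lower (-0.24 in leukocyte-poor cells, with 0 of 14 higher and 3 lower). Capillary genes thus went both ways, with Aqp1, Car4, Meox2 and Kdr higher and Fabp5 and Timp4 lower. Timp4, an inhibitor of matrix proteases, was the capillary gene furthest apart, at 310 CPM in Sham, 264 in MI, where it came from 12 cells, and 75.7 in MI-E, 3.49-fold lower than in MI (2.58 to 4.68).

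GBPs and immunity-related GTPases are proteins that interferons, interferon-gamma above all, induce in many cell types, where they attack the vacuoles of intracellular microbes. Of 18 such genes, a list drawn up after values had been seen, 12 passed the limit. Of the 12, 11 were at least 1.5-fold higher in MI-E relative to MI and 0 lower, beside 11.5% and 9.02% of all genes. A gene can pass the limit by its level in MI-E alone, and only 7 of the 18 passed between MI and Sham. The counts thus describe a list chosen from these data and are not a test. The median log2 ratio of the genes that passed was 2.12 (1.93 in leukocyte-poor cells). 4 of them are shown with their promoters: Gbp2, Gbp7 and Igtp, which were higher in MI-E, and Irgm1, which was not. Each sequence is the RefSeq promoter in build GRCm38.p6, from 250 bases before a transcript start of the gene to 50 after it. That start is not always the outermost base of the gene, and the sequence is written 5' to 3' along the gene's strand. Capitals mark matches to GAAANNGAAA, called ISRE-type here after the interferon-stimulated response element, and to TTCNNNGAA, called GAS-type after the gamma-activated site, on either strand. Gbp2 is at chr3:142620413-142620712 and Gbp7 at chr3:142530086-142530385, both on the plus strand. Igtp is at chr11:58199306-58199605 on the plus strand and Irgm1 at chr11:48871371-48871670 on the minus strand.
Gbp2: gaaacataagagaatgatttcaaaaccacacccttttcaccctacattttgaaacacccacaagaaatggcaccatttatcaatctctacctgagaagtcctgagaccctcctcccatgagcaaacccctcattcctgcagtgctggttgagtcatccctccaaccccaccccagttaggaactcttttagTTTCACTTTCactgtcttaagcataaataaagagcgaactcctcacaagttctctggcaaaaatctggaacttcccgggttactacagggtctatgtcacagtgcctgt
Gbp7: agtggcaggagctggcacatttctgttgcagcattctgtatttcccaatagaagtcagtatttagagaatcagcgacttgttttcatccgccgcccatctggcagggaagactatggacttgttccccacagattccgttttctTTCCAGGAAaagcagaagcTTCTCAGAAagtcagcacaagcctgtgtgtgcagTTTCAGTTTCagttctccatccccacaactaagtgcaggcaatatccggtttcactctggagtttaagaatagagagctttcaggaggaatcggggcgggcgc
Igtp: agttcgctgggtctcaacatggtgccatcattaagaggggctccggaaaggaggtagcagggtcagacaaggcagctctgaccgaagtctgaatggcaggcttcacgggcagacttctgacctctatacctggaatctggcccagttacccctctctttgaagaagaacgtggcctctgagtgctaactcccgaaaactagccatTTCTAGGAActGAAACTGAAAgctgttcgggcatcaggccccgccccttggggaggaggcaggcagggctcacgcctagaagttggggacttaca
Irgm1: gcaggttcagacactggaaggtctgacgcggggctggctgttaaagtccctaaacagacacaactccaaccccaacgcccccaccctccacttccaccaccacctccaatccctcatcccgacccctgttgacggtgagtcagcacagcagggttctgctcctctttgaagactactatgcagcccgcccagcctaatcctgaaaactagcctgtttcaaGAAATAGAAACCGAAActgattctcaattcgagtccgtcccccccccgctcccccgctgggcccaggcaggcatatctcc

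The Gbp2 promoter held 1 ISRE-type match, on the minus strand, 59 to 50 bases before the start. Gbp7 held 1 on the minus strand at 53 to 44 bases before the start, and 2 GAS-type matches at 106 to 98 and 87 to 79. Igtp held 1 of each, at 34 to 25 and 45 to 37 bases before the start. Irgm1 held 2 ISRE-type matches that overlap each other, at 30 to 21 and 24 to 15, and no GAS-type match. Of the 18 genes, 10 had a promoter in the table: 9 held an ISRE-type match, 6 a GAS-type match, 6 both and 1, Ifi47, neither. ISRE-type and GAS-type matches did not overlap each other in the 4 promoters shown. Of all 32851 mouse promoters of the same length, 3.44% held an ISRE-type match, 8.30% a GAS-type match and 0.454% both. Such matches are letters in a window and say nothing of which factor acted in these cells.

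Gbp2 was at 97.9 CPM in Sham (78.6 to 120), 103 in MI (69.3 to 149) and 524 in MI-E (490 to 559), in 61, 10 and 141 cells. The intervals of Sham and MI overlapped for Gbp2, and MI-E was 5.06-fold above MI (3.50 to 7.60). Gbp7 was at 90.2, 71.4 and 380 CPM, 5.32-fold above MI in MI-E (3.42 to 8.78). Gbp4 was at 49.5 CPM in Sham, 27.3 to 83.8 by its interval in MI and 208 in MI-E, 4.15-fold higher (2.44 to 7.68). These 3 GBPs shared 1 pattern, with Sham and MI alike within counting error and MI-E above both. Igtp was at 81.4, 39.3 and 255 CPM, 6.49-fold above MI in MI-E (3.59 to 13.1) and 2.07-fold lower in MI relative to Sham (1.09 to 4.33). Iigp1, another of these GTPases, was far more abundant, at 962, 321 and 1184 CPM, so that MI was the low library and MI-E 3.69-fold above it (2.98 to 4.61). Irgm1, which regulates the other GTPases, was at 438, 150 and 134 CPM, 2.92-fold lower in MI relative to Sham (2.12 to 4.12) and not different between MI and MI-E beyond counting error. Gbp3, Gbp5 and Gbp6 were also higher in MI-E relative to MI, by 3.39-fold, 4.79-fold and 6.91-fold, with only 14, 4 and 6 positive cells in MI. Reads of close GBP paralogs can be shared, so the split among them is uncertain.

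GTPase levels were far lower outside the endothelial cells. All other kept barcodes held 7.66, 19.9 and 61.3 CPM of Gbp2, 9.16, 11.9 and 25.2 of Igtp and 9.80, 3.66 and 10.8 of Iigp1. At these low levels, each of these genes was higher in MI-E than in MI there too, so the direction was not particular to endothelial cells. None of the 18 genes had a mean of 50 CPM there in any comparison. Leukocyte-poor endothelial cells were at or above the C1q-low cells for Gbp2 and Iigp1, with Gbp2 at 99.7, 159 and 683 CPM and Iigp1 at 1086, 400 and 1563 CPM. The GTPase difference was thus of like size when cells with leukocyte RNA were left out.

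**Figure D5:**
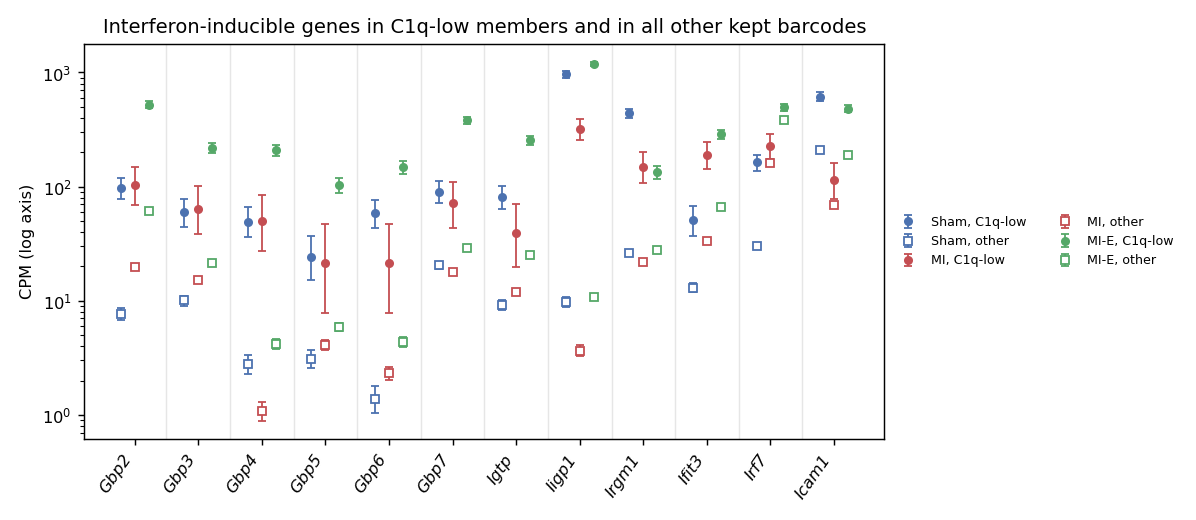
Levels of interferon-inducible genes (CPM, log axis) in each library, with C1q-low endothelial cells as filled circles, all other kept barcodes as open squares and exact Poisson 95% intervals as bars. Gbp2 stands at 97.9, 103 and 524 CPM in Sham, MI and MI-E endothelial cells, and Irgm1 runs the other way, at 438, 150 and 134 CPM.

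A list of 20 general interferon response genes was higher in MI-E too. Of 18 that passed the limit, 11 were at least 1.5-fold higher in MI-E relative to MI and 0 lower, beside 11.5% and 9.02% of all genes. The median log2 ratio was 0.69 (0.74 in leukocyte-poor cells). All other kept barcodes shared this difference, with 8 of 13 higher and 0 lower, beside 8.07% of all genes there, and a median of 0.59. Ifit3, an inhibitor of viral replication, was at 50.6, 189 and 287 CPM. Irf7, a transcription factor that amplifies the interferon response, was at 163, 228 and 497 CPM. Both genes stepped up from Sham to MI and from MI to MI-E. Irf1, an early interferon-gamma target that stress also induces, ran differently, at 967, 246 and 439 CPM, with Sham highest. Between MI and Sham 7 of 16 list genes were higher and 1 lower, beside 23.6% and 16.4% of all genes. The median was 0.40, which turned to -0.19 when only genes with a mean of at least 200 CPM were counted. Leukocyte-poor cells gave 9 of 18 higher and 1 lower, beside 24.5% and 15.5% of all genes, with a median of 0.61. In all other kept barcodes 5 of 9 were higher and 2 lower, beside 30.1% and 16.0% of all genes, with a median of 0.81.

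Genes for display to and recruitment of leukocytes were mixed. Of 16 adhesion and chemokine genes 12 passed the limit, with Icam1, Cxcl9 and Cxcl10 at least 1.5-fold higher in MI-E relative to MI, Cxcl12 and Ccl2 lower and a median log2 ratio of -0.18. Of all genes 11.5% were higher and 9.02% lower. In leukocyte-poor cells 4 of 11 adhesion and chemokine genes were higher and 4 lower, beside 13.0% and 15.1% of all genes. Outside that list, Cd274, the checkpoint ligand PD-L1, was at 44.0, 42.8 and 149 CPM, 3.48-fold above MI in MI-E (1.96 to 6.83). Icam1 was 4.20-fold above MI in MI-E (2.95 to 6.19) but not above its level in Sham. Cxcl9, a chemokine for activated T cells that interferon-gamma induces, was at 610, 193 and 585 CPM, again with MI lowest, and at 5.62, 6.87 and 6.86 CPM in all other kept barcodes. Cxcl10, of the same family, was at 614, 457 and 922 CPM, in 56, 9 and 101 cells. In contrast Cxcl12, which retains leukocytes and guides vessels, was lowest in MI-E, at 1647, 1427 and 879 CPM, 1.62-fold lower than in MI. B2m, the light chain of MHC class I, was at 1446, 1763 and 2453 CPM, and at 1190, 1718 and 2306 CPM in all other kept barcodes. Ccl7, a monocyte chemokine, moved with leukocyte RNA: it was at 15.4, 214 and 174 CPM in C1q-low cells but at 15.6, 16.4 and 52.9 in leukocyte-poor cells, beside 1195, 1326 and 1169 in all other kept barcodes.

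Among genes lower in MI-E than in MI was Cenpa, a histone of centromeres, at 31.9, 128 and 16.7 CPM. Thrsp, a lipid synthesis gene, was at 84.7, 161 and 45.3 CPM, and Mgp, an inhibitor of calcification, at 260, 203 and 62.0 CPM in 16, 7 and 29 cells. Hmgn2, Clu, Dnajc10, Stmn1 and Cyth1 were between 2.24-fold and 3.19-fold lower. Clu, a secreted chaperone, depended on the cells counted: in leukocyte-poor cells it was at 73.2, 110 and 90.7 CPM. Stress genes were between the other libraries in MI-E. Of 20, 10 were at least 1.5-fold higher than in MI and 0 lower, beside 11.5% and 9.02% of all genes. In all other kept barcodes 0 of the 17 that passed were at least 1.5-fold apart in either direction between MI-E and MI, beside 8.07% of all genes higher and 4.46% lower there.

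The comparison of MI-E with Sham uses the same Sham library as that of MI, so a chance deviation of Sham enters both. Here 541 of 2896 genes (18.7%) were at least 1.5-fold higher in MI-E and 333 (11.5%) lower, and with TMM factors 419 and 486. The capillary list had 0 of 15 genes higher and 11 lower (0 and 6 in leukocyte-poor cells). Its median log2 ratio was -0.74 (-0.55 in leukocyte-poor cells). Fabp4 was 1.78-fold lower in MI-E (1.74 to 1.81), Aqp7 5.73-fold (4.09 to 8.18) and Timp4 4.09-fold (3.31 to 5.09). The basement membrane list had 5 of 11 genes higher and 0 lower, and the interferon list 14 of 18 higher and 1, Irf1, lower.

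Among the 10 genes highest in MI-E over Sham, Pgf, the VEGF family member placental growth factor, was at 78.1 CPM in 10 Sham cells, 125 in 9 MI cells and 353 in 50 MI-E cells, 4.52-fold higher (3.53 to 5.87), and at 107, 131 and 247 CPM in leukocyte-poor cells. Wars, a tRNA synthetase that interferon-gamma induces, was at 53.9, 71.4 and 240 CPM, 4.46-fold higher (3.31 to 6.13). Plvap, the protein of the diaphragms in fenestrated and venular endothelium, was at 14.3, 92.8 and 103 CPM, 7.22-fold higher in MI-E than in Sham (4.11 to 13.8). Plvap was carried by few cells, 6 in Sham, against 5 in MI and 27 in MI-E. Lower in MI-E than in Sham were, beside genes named above, Ackr3, a scavenger receptor for Cxcl12, 4.15-fold lower (2.93 to 5.96), and Ccn1, a matrix signal of flow and injury, at 275, 121 and 82.3 CPM.

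The 27 Plvap-positive cells of MI-E were set beside the other 158, a split made after values had been seen and one that favours deep cells, with medians of 14556 and 5648.5 UMIs. Selp was at 319 CPM in them, in 13 of 27 cells, and at 2.36 CPM in the others, in 1 of 158. Lrg1 was at 359 and 62.9 CPM, and Vcam1, the ligand of leukocyte integrin VLA-4, at 240 and 99.0 CPM. The venous list as a whole was 3.66-fold higher in the Plvap-positive cells, at 1391 against 380 CPM. Capillary genes were lower in them, Timp4 at 12.4 against 95.9 CPM, Aqp7 at 4.95 against 34.6 and Fabp4 at 10311 against 13291. Gbp2 was at 527 and 523 CPM, but among leukocyte-poor cells, 13 of them Plvap-positive, it was at 886 and 635 CPM, a ratio of 1.40 (1.14 to 1.70). Iigp1 went the other way, at 794 and 1308 CPM, a ratio of 0.608 (0.537 to 0.685). Both GTPase genes were thus also found in the cells without Plvap.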

How the data were processed

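The authors deposited 1 matrix of raw UMI counts per library, whole numbers for 32285 genes in each called cell, per the file headers. They used Cell Ranger 5.0.1 with mm10, per the submitters' processing notes; no source used here gives the annotation release. The libraries held 41140109 (Sham), 98814001 (MI) and 104562768 (MI-E) UMIs. From these counts, barcodes were filtered and classed by summed marker UMIs as described above; 5, 3 and 27 barcodes with enough endothelial UMIs were left out by the collagen limit. No doublet caller was run; C1q-positive and leukocyte-rich barcodes were set apart by their UMIs.

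UMIs were summed per class and library and scaled to CPM. A log2 ratio, and the order of genes against all other kept barcodes, takes CPM + 1, and a fold takes CPM. Intervals are exact Poisson for levels, the exact conditional interval of a pair of Poisson counts for ratios and Clopper-Pearson for shares, at 95%, computed with scipy 1.17.1. Share limits at 0 allow 3 counts. Genes with a mean of at least 50 CPM over the 2 libraries were measured and called higher or lower at 1.5-fold. The ratio computation was checked on simulated counts. TMM factors came from edgeR 4.0.16. Genes named by rule are the 10 highest and 10 lowest ratios per comparison, with 100 CPM or more in the higher library, and UMIs in 10% or more, and 5 or more, of its cells. Promoters, from RefSeq, were matched by gene symbol. The members, the 37 gene lists and the tests were chosen with earlier results of these data known, and the GTPase list, the Plvap split and 2 alternatives after values had been seen. Ccl21a had no unique match. A few genes that the rule or the lists hold are not reported here.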

Additional observations from a re-analysis of the deposited data

How the results depend on the processing

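No paired analysis was possible because each group is 1 library. All MI levels rest on 42 cells, and a left-out library would end its comparison. The alternatives were TMM and median-of-ratios scaling, other limits on low genes, fold, markers and C1q, equal weight per cell, thinning, leukocyte-poor cells alone, and, added after seeing the data, 2 more. The cause of each move was not tested. Of 63 ratios of shares 59 moved by less than counting error. The C1q-positive ratio of MI over Sham turned to 0.541 on thinning, and that of MI-E over MI moved to 2.05, or to 1.33 with a C1q limit of 2 UMIs, at which the C1q-low ratio of MI-E over Sham was 0.644. Of 65 shares 11 moved. C1q-low shares became 0.339% in MI and 1.23% in MI-E on thinning, 1.36% in Sham and 1.00% in MI-E in leukocyte-poor cells, and 1.03% in MI-E with a C1q limit of 2. C1q-positive shares became 0.224%, 0.121% and 0.248% in Sham, MI and MI-E on thinning, 0.657% and 0.782% in Sham and MI-E with at least 2 marker UMIs, and 1.08% in MI-E with a C1q limit of 2.

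Counts of genes higher and lower were, for MI over Sham, MI-E over MI and MI-E over Sham in turn, 288 and 198, 109 and 47, and 233 and 95 at 2-fold; 155 and 129, 73 and 41, and 120 and 97 at a mean of 200 CPM; and 4193 and 4745, 5423 and 2813, and 5007 and 3396 with no limit. For MI-E over MI lower calls came to outnumber higher ones, with 393 higher and 478 lower at a C1q limit of 2, 404 and 453 with equal weights and 388 and 448 in leukocyte-poor cells. Those lower in MI-E than in Sham numbered 510 with median-of-ratios factors. With TMM and with median-of-ratios factors the share of calls that were higher went from 59.0% to 45.5% and 40.4% for MI over Sham, from 56.0% to 60.0% and 66.4% for MI-E over MI, and from 61.9% to 46.3% and 44.2% for MI-E over Sham.

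Of the capillary, basement membrane, interferon and stress lists, median log2 ratios kept their sign except capillary for MI-E over MI, at 0.02 with median-of-ratios factors and 0.11 in leukocyte-poor cells, basement membrane for MI-E over MI, at 0 with median-of-ratios factors, and interferon for MI over Sham, at -0.19 with a mean of 200 CPM (0.75 for MI-E over Sham). The stress median was -1.59 with median-of-ratios factors and -1.22 with equal weights for MI over Sham, and -1.02, -0.60 and, with a C1q limit of 2, -0.76 for MI-E over Sham. The capillary median of MI-E over Sham was -0.85 with TMM, -0.87 with median-of-ratios factors, -0.52 with equal weights, -0.55 in leukocyte-poor cells and -0.57 with a C1q limit of 2; that of basement membrane was 0.41 with median-of-ratios factors. Of 600 values of named genes 42 moved by more than counting error and 0 turned.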

Other observations

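Some gene groups outside the accounts above also differed between the libraries. Vim, the intermediate filament vimentin, was at 1476, 3568 and 3813 CPM in the C1q-low cells of Sham, MI and MI-E, and at 1571, 4408 and 3772 CPM in leukocyte-poor cells. Anxa2, an annexin that helps plasmin form on the cell surface, was at 342, 789 and 705 CPM, 2.31-fold higher in MI relative to Sham (1.93 to 2.75), while all other kept barcodes had 213, 559 and 657 CPM. Ace, the angiotensin-converting enzyme, was at 14.3, 71.4 and 54.9 CPM in 8, 10 and 40 cells. Each of these 3 genes was lowest in Sham. Zeb2, a transcription factor of mesenchymal and myeloid cells, and Fn1, fibronectin, looked alike in C1q-low cells, at 19.8, 118 and 116 CPM and at 37.4, 171 and 172 CPM. Their levels in leukocyte-poor cells were 17.1, 21.9 and 32.7 CPM and 49.8, 71.2 and 75.6 CPM, and those of all other kept barcodes 244, 353 and 482 CPM and 41.5, 549 and 477 CPM. Oxidative phosphorylation genes were close between libraries. Of 19, 2 were at least 1.5-fold higher in MI relative to Sham and 0 lower, beside 23.6% and 16.4% of all genes. Vegfc, a growth factor of lymphatic vessels, was lowest in MI, at 59.4, 7.14 and 31.0 CPM in 29, 2 and 23 cells.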
